A study of Mus musculus with 4 samples.

Results

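Heat shock proteins and chaperonins are the machines that fold new proteins, keep damaged ones from clumping and pass the rest on for refolding. The members were taken by name. A protein-coding gene of the deposited table was a member if its symbol was that of an HSP70 or HSP110 gene (Hspa, Hsph), an HSP90 gene (Hsp90), a small heat shock protein gene (Hspb), the mitochondrial chaperonin pair (*Hspd1*, *Hspe1*), a subunit of the cytosolic chaperonin CCT (Cct, *Tcp1*) or a J-domain protein of subfamily A, B or C (Dnaja, Dnajb, Dnajc). The rule found 79 of the 56748 genes in the table, of which 14 were HSP70 or HSP110 genes, 3 HSP90 genes, 8 small heat shock protein genes, 2 mitochondrial chaperonin genes, 9 CCT genes and 43 J-domain genes. The alpha crystallins *Cryaa* and *Cryab*, which are relatives of the small heat shock proteins, were not members.

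RNA was sequenced from whole lenses of mice between 10 and 12 days old, with 2 libraries from mutant and 2 from control animals. The mutant mice were Fsp1-cre;Pdgfrb+/D849V, which carry 1 *Pdgfrb* allele for a hyperactive PDGF receptor that is switched on where the Fsp1 promoter drives Cre. The study describes strong reporter activity of Fsp1-cre in the lens epithelium, and later cataract, at ages above those sequenced here. The sample labels give Fsp1-cre;Pdgfrb+/+ for both control libraries, whereas the study's methods describe control pools that also held lenses without Cre, some with the D849V allele. Each library was a pool from several mice on an FVB/N background, and the line also carried a Rosa-LSL-tdTomato reporter. Because Fsp1-cre is not specific to the lens and the receptor gene keeps its own promoter, neither the share of lens cells with the active allele nor the number of mice per pool can be read from the table. Differences below are therefore set against the spread between pools of lenses.

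Members of the HSP70 family bind short hydrophobic stretches of unfolded protein and release them in cycles of ATP use, which J-domain proteins start and exchange factors of the HSP110 type reset. HSP90 acts later on nearly folded clients, the small heat shock proteins hold unfolded proteins without using ATP, and CCT and the HSP60 and HSP10 pair enclose a single protein in a barrel. The inner fibre cells of the lens keep their proteins for life, and loss of chaperone function there is known to lead to cataract. Heat shock factors switch many of these genes on through heat shock elements, short repeats of GAA and TTC in their promoters, and HSF4 is the family member best known from the lens.

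Promoter letters were read for 65 of the 79 members, which have 84 windows in the RefSeq table of the GRCm38.p6 build, each running from 250 bases before to 50 bases after a gene's start. The search was for a pair of facing units, GAANNTTC or TTCNNGAA, each of which is its own reverse complement, and for the longer run of 3 alternating units with 2 free bases between neighbours, which contains such pairs. A pair was present in 20 windows (23.8%), against 15.1% of all 32851 windows in the table. The run of 3 units was present in 6 windows (7.14%) against 0.603% of all windows. The 6 windows belonged to 4 genes, *Hspd1*, *Hspe1*, *Hsph1* and *Dnajb6*, the last of which was named here after its letters were seen. These windows overlap within *Hsph1*, within *Dnajb6* and between *Hspd1* and *Hspe1*, so they are not 6 separate stretches. By gene, the run was found in 4 of 65 members against 179 of 27025 genes. The windows below are shown because they belong to the chaperonin pair that shares 1 promoter, to the most abundant member, to the HSP110 gene with the long run, and to a pair of stress-inducible members with few reads in these lenses. Capitals mark the facing pairs, overlapping pairs run together, and all sequences read 5′ to 3′ on the strand of the gene.
Hspe1 (chr1:55087898-55088197, plus strand): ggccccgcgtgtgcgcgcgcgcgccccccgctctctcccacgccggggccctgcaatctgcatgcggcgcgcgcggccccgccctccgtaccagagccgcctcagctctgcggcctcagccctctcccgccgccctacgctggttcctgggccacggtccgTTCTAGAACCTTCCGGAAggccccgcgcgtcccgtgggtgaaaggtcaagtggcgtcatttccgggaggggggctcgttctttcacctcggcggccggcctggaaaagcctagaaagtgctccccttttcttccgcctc
Hspb1 (chr5:135887669-135887968, plus strand): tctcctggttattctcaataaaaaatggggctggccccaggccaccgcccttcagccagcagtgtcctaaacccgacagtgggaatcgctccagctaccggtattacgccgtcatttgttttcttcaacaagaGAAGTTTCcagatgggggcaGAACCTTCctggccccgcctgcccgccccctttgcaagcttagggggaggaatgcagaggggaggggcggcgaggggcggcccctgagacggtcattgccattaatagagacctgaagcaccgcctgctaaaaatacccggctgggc
Hsph1 (chr5:149636287-149636586, minus strand): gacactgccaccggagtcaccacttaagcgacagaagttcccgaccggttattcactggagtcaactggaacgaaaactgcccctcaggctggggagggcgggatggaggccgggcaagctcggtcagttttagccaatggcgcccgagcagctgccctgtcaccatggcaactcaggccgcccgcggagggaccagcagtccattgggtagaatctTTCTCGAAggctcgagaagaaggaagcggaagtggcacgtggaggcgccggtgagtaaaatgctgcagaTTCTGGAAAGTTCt
Hspa1b (chr17:34959189-34959488, minus strand): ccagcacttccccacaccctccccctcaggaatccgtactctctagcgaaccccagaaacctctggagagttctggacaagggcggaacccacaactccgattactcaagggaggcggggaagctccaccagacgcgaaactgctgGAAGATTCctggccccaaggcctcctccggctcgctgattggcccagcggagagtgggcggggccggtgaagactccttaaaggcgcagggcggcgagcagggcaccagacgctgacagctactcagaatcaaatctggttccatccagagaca
Hspb8 (chr5:116422815-116423114, minus strand): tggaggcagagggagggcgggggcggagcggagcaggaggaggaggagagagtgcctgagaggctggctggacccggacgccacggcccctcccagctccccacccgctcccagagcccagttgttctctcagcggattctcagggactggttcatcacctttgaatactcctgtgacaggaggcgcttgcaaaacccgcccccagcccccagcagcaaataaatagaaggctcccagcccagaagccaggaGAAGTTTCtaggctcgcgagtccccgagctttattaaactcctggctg

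In the *Hspe1* window the capitals form 1 unbroken run of 18 bases with 4 alternating units, which starts 89 bases before the start of the gene. *Hspd1* is read in the other direction from the same stretch, and a window of *Hspd1* shares 285 of its 300 bases with it. *Hspb1* and *Hsph1* each hold more than 1 pair, and *Hspa1b* and *Hspb8* hold a single one. The *Hspa1a* and *Hspa1b* windows differ at 4 of 300 bases. By class, a pair was found in 4 of 13 HSP70 and HSP110 windows and 0 of 1 HSP90 window. It was in 4 of 8 small heat shock protein, 2 of 3 HSP60 and HSP10 and 3 of 10 CCT windows. Among J-domain windows it was in 2 of 7 of subfamily A, 3 of 19 of B and 2 of 23 of C. *Hspa8*, *Hsp90aa1* and *Hsp90ab1* had no window. A match is a description of the letters and does not say that a factor binds there.

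**Figure D1:**
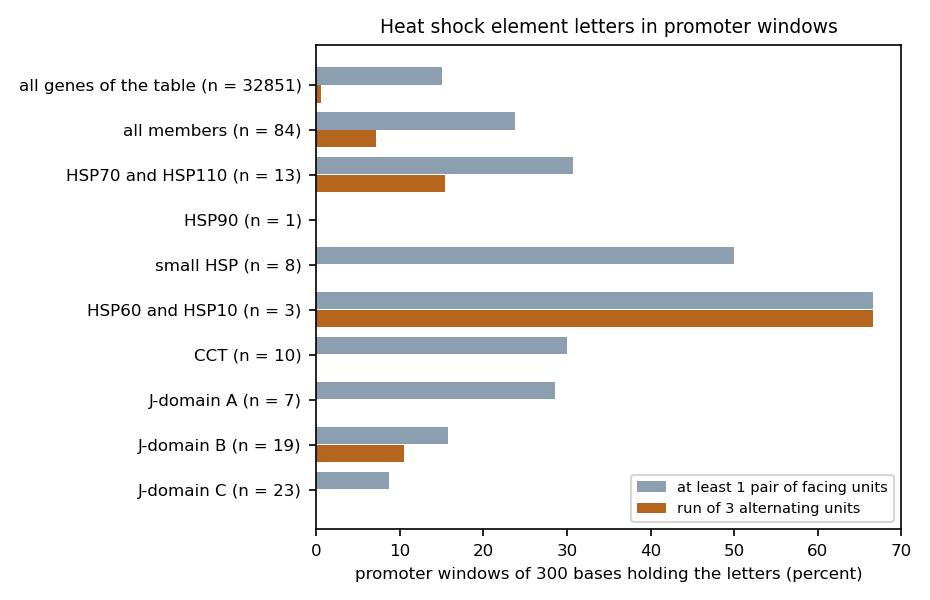
Bars give the percent of promoter windows of 300 bases that hold at least 1 pair of facing heat shock units (grey) or a run of 3 alternating units (brown), for all genes of the RefSeq table, all members and each class, with the number of windows in brackets. The run of 3 was found in 7.14% of the members' windows and in 0.603% of all windows, and the classes rest on 1 to 23 windows each.

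The libraries held 18561682 to 18878768 recovered reads, and the deposited unit is FPKM, that is reads per kilobase of gene, scaled by depth. The depth implied by the FPKM was 0.944 and 1.05 times the recovered reads in mutant replicates 1 and 2. In control replicates 1 and 2 it was 1.05 and 0.987 times the recovered reads. Crystallin genes took 58.6% to 62.9% of the reads and the members together 0.633% to 0.687%. Of the lens fibre markers, 7 of 8 were tested and had a median log2 fold change of 0.016, while *Lim2*, which encodes a fibre membrane protein, was listed at 0 in all libraries, so a 0 in this table need not mean that a gene is silent. All 6 lens epithelium markers were detected, among them *Foxe3* at 103 to 122 FPKM. The 5 red cell markers summed to 25.2 and 17.2 FPKM in mutant replicates 1 and 2 and to 34.9 and 21.6 FPKM in control replicates 1 and 2, most of it from *Hba-a1*, and control replicate 1 was the highest. The 3 of them that were tested had lower mutant means, with 0 past an adjusted p under 0.05 in limma. The 5 muscle markers summed to 10.1 to 12.9 FPKM, nearly all from *Acta2*, the 4 fibroblast markers to 4.68 to 6.54 FPKM and the 4 pigment epithelium markers to 0.141 to 0.544 FPKM. The retina markers summed to 0.193 and 1.97 FPKM in mutant replicates 1 and 2 and to 1.01 and 0.189 FPKM in control replicates 1 and 2. The 5 vessel markers were all lower in the mutant mean, with none past an adjusted p under 0.05, and their sum lay between 4.50 and 5.97 FPKM in the mutant and between 7.09 and 7.66 FPKM in the control libraries. The 4 immune markers summed to 1.40 and 1.39 FPKM in the mutant and to 0.686 and 0.394 FPKM in the control libraries, with *Ptprc* at or near 0 in all of them. *Xist*, the X-inactivation transcript of female cells, stood at 7.62 and 13.1 FPKM in the mutant and 15.6 and 5.56 FPKM in the control libraries, so libraries of each group differed in this transcript. The targeted gene *Pdgfrb* was read at 2.36 and 2.16 FPKM in mutant and 2.25 and 1.79 FPKM in control libraries, and since the allele is a knock-in at its own locus this level does not check the genotype.

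Several members were among the well expressed genes of the lens in both genotypes. *Hspb1* (ENSMUSG00000004951, chr5:135916773-135918417, plus strand), the small heat shock protein HSP25, was the most abundant, with 1395 and 930 FPKM in mutant replicates 1 and 2 and 924 and 1187 FPKM in control replicates 1 and 2. The cytosolic HSP90 gene *Hsp90ab1* (ENSMUSG00000023944, chr17:45878701-45884197, minus strand) followed at 480 and 457 FPKM in the mutant and 414 and 473 FPKM in the control libraries. *Hspa8* (ENSMUSG00000015656, chr9:40712280-40721383, plus strand), the constitutive cytosolic HSP70, stood at 191 and 156 FPKM against 139 and 160 FPKM. In the mean of the control libraries these were ranked 26, 41 and 104 among the protein-coding genes. Positions of genes are those of the deposited table, and the submitters' processing notes name the mm39 build. *Cryab*, for comparison, was listed at 21471 to 27108 FPKM.

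**Figure D2:**
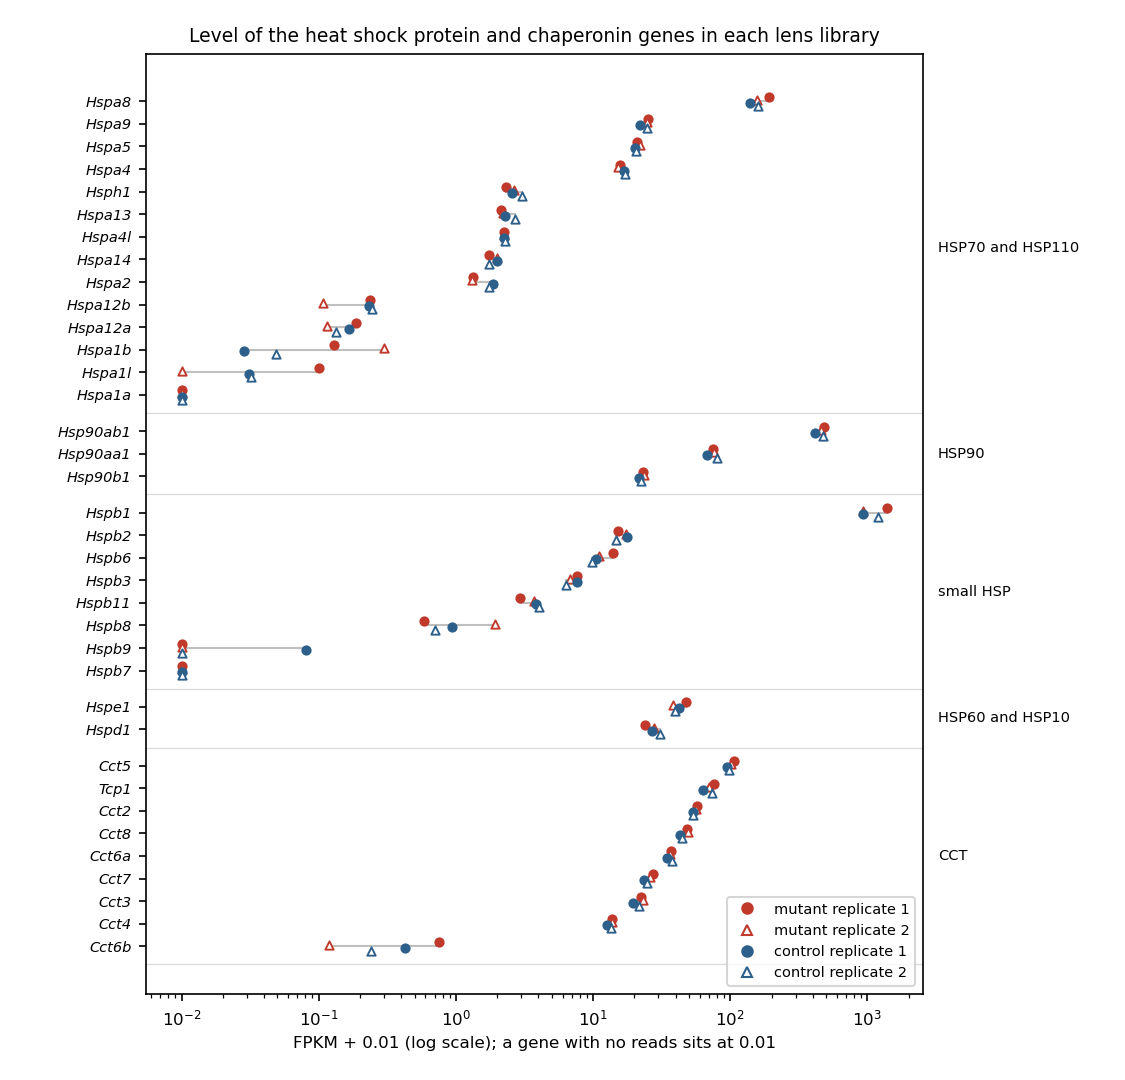
Each row is a gene and each point its level in 1 library, as FPKM plus 0.01 on a log axis, with mutant libraries in red, control libraries in blue, replicate 1 as filled circles and replicate 2 as open triangles. Genes with no reads sit at the left edge at 0.01, and the grey line joins the lowest and highest library. Levels run from Hspb1 near 1000 down to Hspa1a and Hspb7 with no reads, and wide spreads are found in the rows of few reads such as Hspa1b, Hspb8 and Cct6b.

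Over all members, no gene passed the test for a difference between mutant and control lenses. Of the 79 members, 71 reached the mean of 0.1 FPKM needed for the test, and 0 of them had an adjusted p under 0.05 in limma, against 6 of all 15997 genes tested (0.0375%). The smallest adjusted p of a member in limma was 0.707. With voom on the recovered reads the count was also 0, against 0.0875% of all genes. Without adjustment, 3 members (4.23%) had a p under 0.05 in limma, against 6.31% of all genes. The 3 were *Dnajc27*, which was higher, and *Hspa2* and *Dnajb3*, which were lower. Voom also placed 3 members under this threshold, against 7.43% of all genes, namely *Dnajc27*, *Dnajc15* and *Hspa1b*, of which only *Dnajc27* was shared.

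The members nevertheless lay a little above 0 as a body. The estimate was higher in mutant lenses for 45 of 71 members and lower for 26, with a median log2 fold change of 0.075, where all genes tested had 50.7% higher and a median of 0.004. In 24 members (33.8%) both mutant libraries were above both control libraries, against 18.2% of all genes, and in 6 (8.45%) both were below, against 18.3%. Abundant genes as such were shifted the same way. Among the 1669 genes that averaged 10 FPKM or more, 65.5% were higher in the mutant and the median was 0.066, and among the 26 members at that level 23 were higher with a median of 0.09. These shares are descriptions, since genes of 1 library are not replicates of each other. In bulk lenses, fewer cells of a type and less RNA per cell cannot be told apart.

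Control replicate 1 held the lowest value of most abundant members. Of the 26 members that averaged 10 FPKM or more, 18 had their lowest value in control replicate 1, and 14 had their highest value in mutant replicate 1. Among all 1669 genes at that level the lowest value was in control replicate 1 for 43.6% and the highest in mutant replicate 1 for 48.9%. In reads, the members took 0.687% and 0.681% of the mutant libraries and 0.633% and 0.672% of the control libraries, so control replicate 1 was the lowest. It was also the library with the highest sum of red cell markers, and their part in the level of the members was not tested. With the libraries scaled to their recovered reads in place of the deposited FPKM, 41 of 71 members were higher with a median of 0.044, and the median of all genes moved to −0.024.

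**Figure D3:**
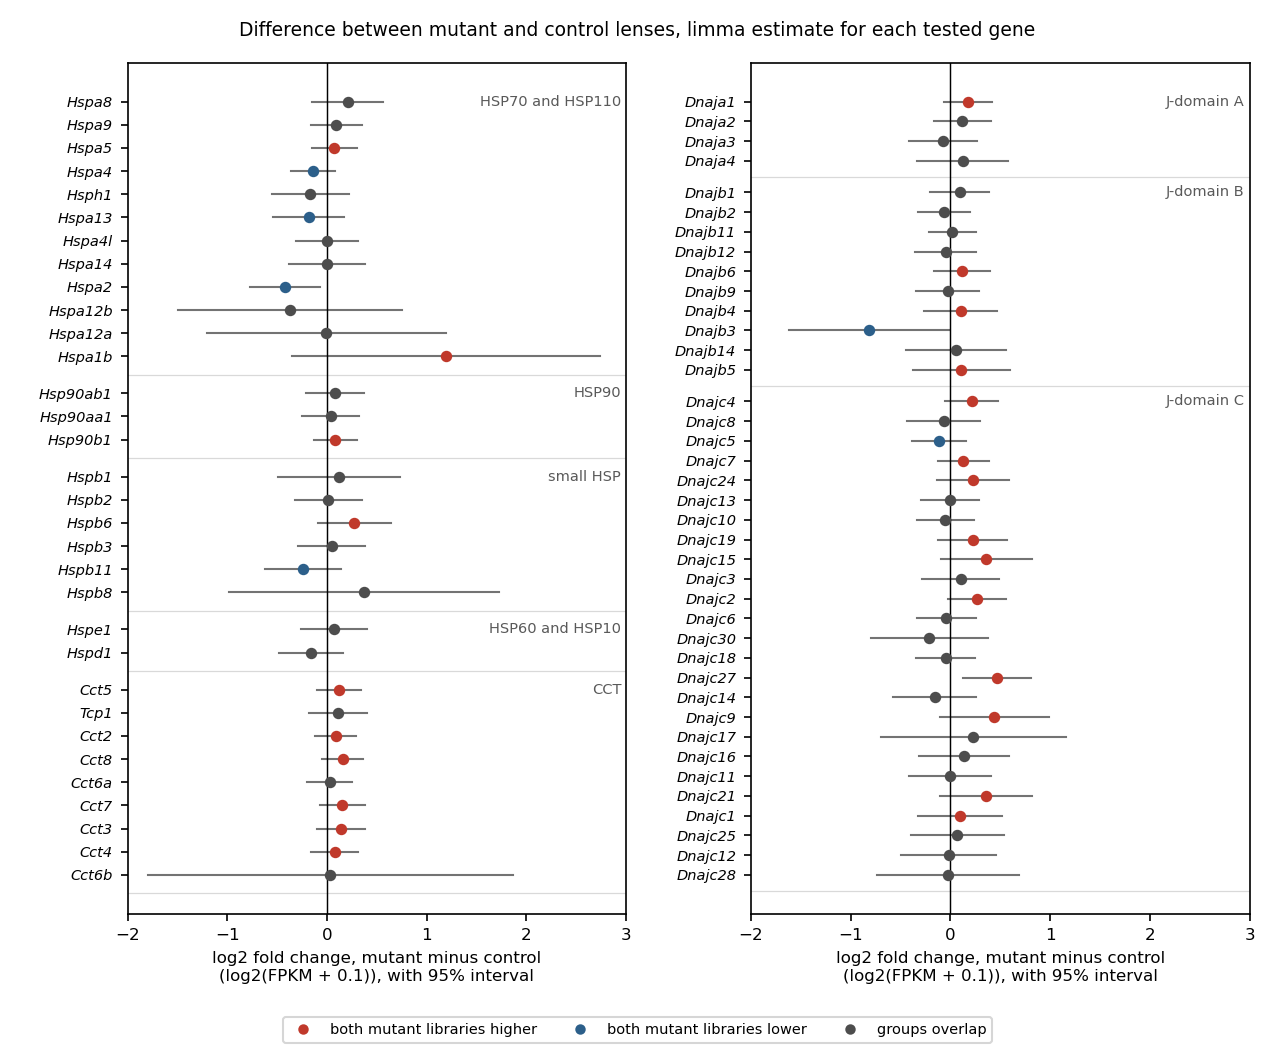
Points give limma's estimate of the mutant minus control difference in log2(FPKM + 0.1) for each of the 71 tested members and lines its 95% interval, by class and, within a class, from the most to the least abundant gene. Red and blue points mark genes in which both mutant libraries lay above (24) or below (6) both control libraries. Nearly all intervals cross 0, and the exceptions are Hspa2, Dnajb3 and Dnajc27, none of which passed after adjustment.

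The HSP70 and HSP110 class had no common direction, with 4 of 12 tested members higher, 8 lower and a median log2 fold change of −0.005. Among the organelle forms, *Hspa5*, the BiP chaperone of the endoplasmic reticulum, stood at 20.9 and 21.9 FPKM in mutant and 20.1 and 20.5 FPKM in control lenses. *Hspa9*, mortalin of the mitochondrial matrix, stood at 25.3 and 24.8 against 22.1 and 24.8 FPKM. Both differed by less than 0.1 on the log2 scale, at 0.075 (SE 0.087) and 0.095 (SE 0.098), with adjusted p of 0.861 and 0.839 in limma. *Hspa13*, a truncated HSP70 relative of microsomes, lay between 2.11 and 2.67 FPKM.

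*Hspa4* and *Hsph1*, 2 of the large exchange factors, were in the other direction. *Hspa4*, an HSP110 relative that resets HSP70, was read at 15.6 and 15.1 FPKM in the mutant and 16.8 and 17.1 FPKM in the control libraries, and the groups did not overlap. Its log2 fold change was −0.14 (95% interval −0.36 to 0.085) with an adjusted p of 0.810 in limma. *Hsph1*, the HSP105 exchange factor whose promoter holds the run of 3 units, lay at 2.32 and 2.64 against 2.55 and 3.04 FPKM, so its groups overlapped. *Hspa4l* and *Hspa14* differed by −0.0017 and −0.0032 on the log2 scale, and the interval of *Hspa4l* was −0.31 to 0.31.

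*Hspa2*, an HSP70 form known from male germ cells, had the smallest p of the members that were lower. It was read at 1.32 and 1.29 FPKM in mutant and 1.85 and 1.72 FPKM in control lenses, or 62 and 67 against 95 and 84 reads. Both mutant libraries were thus below both control libraries, and libraries of 1 group lay close together. The log2 fold change was −0.42 (SE 0.14, 95% interval −0.78 to −0.071), with an adjusted p of 0.763 in limma.

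The stress-inducible HSP70 genes were listed with few reads or none. *Hspa1a* was listed with no reads in any of the 4 libraries. Of the 31-base words in its principal transcript 65.4% occur in other genes, 63.8% in *Hspa1b*, so this 0 sets no limit on its level. Its neighbour *Hspa1b* (ENSMUSG00000090877, chr17:35175412-35178214, minus strand) had 6 and 16 reads in mutant replicates 1 and 2 and 1 and 2 reads in control replicates 1 and 2, or 0.120 and 0.292 against 0.0183 and 0.0387 FPKM. Reads were thus few everywhere and more numerous in both mutant libraries. Per depth the 22 mutant reads were 7.43 times the 3 control reads, with an exact 95% interval of 2.23 to 38.8 that covers counting error only. Over the spread between libraries the log2 fold change was 1.19 (95% interval −0.35 to 2.74, adjusted p = 0.810 in limma). This value depends on the pseudocount, at 0.22 with 1 FPKM and 2.41 with 0.01 FPKM, was 2.47 with voom, and was 0.78 without mutant replicate 2. Of the 31-base words in its principal transcript 68.0% also occur in other genes, above all *Hspa1a*, so the split of reads between the copies is uncertain. *Hspa1l*, which lies in the same cluster of 22.8 kb on chromosome 17, had 4, 0, 1 and 1 reads and was not tested. The distant relatives *Hspa12a* and *Hspa12b* were near the limit of detection, with 0.106 to 0.177 and 0.0970 to 0.236 FPKM.

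*Hspa8* was higher in mutant lenses by 0.21 on the log2 scale (95% interval −0.15 to 0.56), but mutant replicate 2 lay below control replicate 2 and the adjusted p was 0.810 in limma. It was 0.062 without mutant replicate 1. The split of reads between *Hspa8* and a copy is uncertain. Of the 31-base words in the principal transcript of *Hspa8*, 77.2% occur in other genes, and 74.3% occur in the processed pseudogene *Gm15459* (ENSMUSG00000100801, chr5:5831615-5833555, minus strand), which the table lists with 10511 and 10299 mutant reads against 9361 and 10613 control reads. These were 71.9% to 83.4% as many reads as *Hspa8* itself had. When both were added after scaling to 1 depth, the sums were 26534 and 22538 in mutant and 20340 and 23822 in control libraries, a log2 ratio of 0.15. The difference of the means was 2455 scaled reads, which is less than the SD of 2825 between the mutant libraries.

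**Figure D4:**
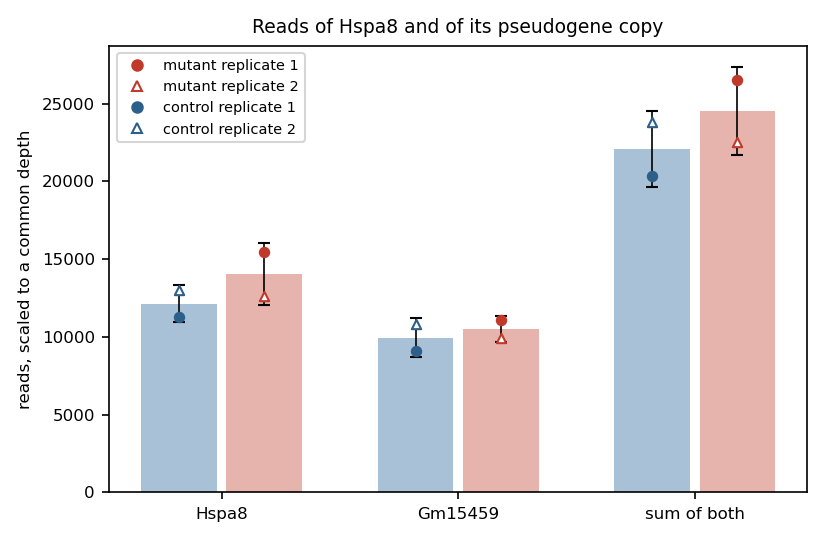
Bars give the mean and whiskers the SD (n = 2 libraries per group) of reads scaled to a common depth for Hspa8, for its processed pseudogene Gm15459 and for their sum, with control in blue, mutant in red and single libraries as points. In all 3 the points of the 2 groups overlap, and the pseudogene is listed with 71.9% to 83.4% as many reads as Hspa8.

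All 3 HSP90 genes were higher in the mutant mean, by 0.036 to 0.083 on the log2 scale, and none passed the test. *Hsp90aa1*, the more inducible cytosolic form, stood at 75.2 and 75.8 FPKM in mutant and 67.5 and 80.2 FPKM in control lenses, so both mutant libraries lay between the controls. *Hsp90b1*, GRP94 of the endoplasmic reticulum, was read at 23.2 and 23.4 against 21.7 and 22.3 FPKM, without overlap and with an adjusted p of 0.836 in limma. The constitutive form prevailed throughout. In FPKM, *Hsp90ab1* was 6.39 and 6.03 times *Hsp90aa1* in the mutant and 6.14 and 5.90 times in the control libraries. Of the words of *Hsp90aa1*, 62.9% occur in other genes. Without control replicate 1 the estimates of *Hsp90ab1* and *Hsp90aa1* turned to −0.014 and −0.088.

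The small heat shock proteins differed among themselves more than between genotypes. *Hspb1* was high in mutant replicate 1 and control replicate 2 and low in mutant replicate 2 and control replicate 1. The 2 low libraries also had more *Xist* and a smaller share of crystallin reads, at 58.6% and 59.0% against 62.9% and 61.5%. The parts of sex and of crystallin share in the level of *Hspb1* were not tested. Its log2 fold change was 0.12 (95% interval −0.49 to 0.73, adjusted p = 0.925 in limma), and it turned to −0.17 without mutant replicate 1 and to −0.059 without control replicate 1. Of its words 61.7% occur in the pseudogene *Hsp25-ps1*, which had only 26 to 44 reads. *Hspb6*, HSP20 of muscle, stood at 14.0 and 11.0 FPKM against 10.6 and 9.86 FPKM, higher in both mutant libraries, with a log2 fold change of 0.28 (SE 0.14) and an adjusted p of 0.810 in limma, and 0.11 without mutant replicate 1. *Hspb3*, also known from muscle, lay between 6.39 and 7.61 FPKM with overlapping groups.

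*Hspb11* carries the family name but is known as a subunit of the transport train of cilia. It was read at 2.93 and 3.67 FPKM in mutant and 3.80 and 4.01 FPKM in control lenses. Both mutant libraries lay below both controls, with a log2 fold change of −0.24 (SE 0.15, adjusted p = 0.810 in limma). This value was −0.084 without mutant replicate 1 and −0.40 without mutant replicate 2. *Hspb8*, a partner of the co-chaperone BAG3, rested on 20 and 73 mutant reads against 35 and 25 control reads. Mutant replicate 2 alone was high, and the log2 fold change of 0.37 turned to −0.42 without it. That library was also the one with the highest sum of retina markers, and their part in the level of *Hspb8* was not tested. *Hspb7* had no reads in any library and *Hspb9* had 1 read in control replicate 1. Over counting error alone, a count of 0 allows up to 0.0608 FPKM for *Hspb7* and up to 0.232 FPKM for *Hspb9*.

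*Hspb2* (ENSMUSG00000038086, chr9:50662378-50663654, minus strand) lies head to head with *Cryab* and shares 1030 of its 1277 bases with it on the opposite strand. It was read at 15.3 and 17.3 FPKM in mutant and 17.6 and 14.7 FPKM in control lenses. Its 226 to 286 reads amount to 0.0318% to 0.0455% of the reads of *Cryab*. Whether the counting used strand is not given in the sources used here, so reads of *Hspb2* and stray reads of *Cryab* cannot be told apart.

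The mitochondrial pair did not move as 1. *Hspe1*, the HSP10 lid, stood at 47.9 and 38.5 FPKM in mutant and 42.1 and 39.7 FPKM in control lenses, and *Hspd1*, the HSP60 barrel, at 23.8 and 28.0 against 26.9 and 30.8 FPKM. Groups overlapped in both, with log2 fold changes of 0.069 and −0.16 and an adjusted p of 0.922 and 0.810 in limma. The ratio of *Hspe1* to *Hspd1* in FPKM was 2.01 and 1.37 for mutant and 1.57 and 1.29 for control libraries. The genes share the promoter whose letters are shown above and overlap by 112 bases. Words that occur in other genes made up 48.1% of *Hspe1* and 55.8% of *Hspd1*.

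The estimates of the CCT chaperonin all lay in 1 direction, apart from that of *Cct6a* with scaling to recovered reads and without control replicate 1, and were small. CCT is a ring of 8 different subunits that folds actin and tubulin, and the estimates of all 8 were higher in mutant lenses, by 0.028 to 0.16 on the log2 scale with a median of 0.12. For 6 of the 8, namely *Cct2*, *Cct3*, *Cct4*, *Cct5*, *Cct7* and *Cct8*, both mutant libraries were above both control libraries, which was so for 18.2% of all genes tested and 28.5% of those that averaged 10 FPKM or more, the level of all 8. The most abundant subunit, *Cct5* (ENSMUSG00000022234, chr15:31590946-31601950, minus strand), stood at 107 and 102 FPKM against 94.0 and 98.2 FPKM. Its log2 fold change was 0.12 (SE 0.087, 95% interval −0.10 to 0.34) with an adjusted p of 0.810 in limma. The estimate furthest from 0 belonged to *Cct8*, with 48.2 and 49.1 against 42.9 and 44.3 FPKM and a log2 fold change of 0.16 (SE 0.082, adjusted p = 0.810 in limma).

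*Tcp1*, the alpha subunit, had 76.6 and 70.4 FPKM in the mutant and 62.9 and 73.4 FPKM in the control libraries, and *Cct6a* had 37.3 and 36.2 against 34.7 and 37.4 FPKM. In both of these, control replicate 2 lay inside or above the mutant libraries. All 8 subunits had their lowest value in control replicate 1. Without that library 7 of 8 were higher, and *Cct6a* turned to −0.027. *Cct6a* was also the exception when libraries were scaled to recovered reads, at −0.0029. *Cct6b*, a form of the zeta subunit known from testis, rested on 4 to 25 reads, at 0.749 and 0.109 FPKM in mutant and 0.412 and 0.232 FPKM in control lenses.

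The ring needs its subunits in equal numbers, but their transcripts were not listed at equal levels. In control lenses the most abundant subunit by FPKM was 7.40 times the least abundant, which was *Cct4* at 13.0 FPKM. The deposited gene length counts all exons of a gene, and per kilobase of the principal transcript the ratio was 6.53 over the 7 subunits that have one in the annotation used. The length was over 2 times that of the principal transcript for 14 of 78 members, so FPKM of such genes is low for their reads. *Cct7* is an example, at 24.1 FPKM in control lenses and at 66.9 on the scale of the principal transcript.

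Of the 43 J-domain genes 39 were tested, of which 23 were higher and 16 lower in mutant lenses. Medians of the log2 fold change were 0.12 for subfamily A (3 of 4 higher), 0.037 for B (6 of 10 higher) and 0.096 for C (14 of 25 higher). In 14 of the 39 both mutant libraries were above both controls, 10 of them in subfamily C, and in 2 both were below, as 35.9% and 5.13% of the tested J-domain genes against 18.2% and 18.3% of all genes. With the scaling to recovered reads 5 of 10 in subfamily B were higher, and the counts of A and C stayed at 3 and 14. The median of B was then 0.0076, and it was −0.022 without control replicate 2. The median of A was 0.067 without mutant replicate 1, 0.072 without control replicate 2 and 0.18 without mutant replicate 2, and that of C was 0.054 without mutant replicate 2.

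Subfamily A holds the full-length partners of HSP70 with a zinc-binding region. *Dnaja1* was read at 16.3 and 15.3 FPKM in mutant and 13.6 and 14.3 FPKM in control lenses, without overlap, and its log2 fold change was 0.18 (SE 0.093, adjusted p = 0.810 in limma). *Dnaja2* lay at 15.0 and 13.5 against 12.3 and 13.9 FPKM, with overlap. The mitochondrial *Dnaja3* lay between 3.14 and 3.72 FPKM in all libraries.

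Subfamily B was led by *Dnajb1*, the classical heat-inducible HSP40 (ENSMUSG00000005483, chr8:84334822-84339282, plus strand). It was read at 70.2 and 69.7 FPKM in mutant and 59.8 and 71.9 FPKM in control lenses, so control replicate 1 was low and the other 3 libraries were alike. The log2 fold change was 0.093 (95% interval −0.20 to 0.39, adjusted p = 0.873 in limma), and −0.040 without control replicate 1. *Dnajb2*, a form known from neurons, stood at 42.4 and 37.5 against 40.5 and 43.0 FPKM. *Dnajb11*, a cofactor of BiP, lay at 14.0 and 13.3 against 13.9 and 13.1 FPKM. The groups overlapped in both.

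*Dnajb3* had the lowest estimate of all tested members. It was read at 0.374 and 0.729 FPKM in mutant and 1.08 and 0.929 FPKM in control lenses, or 7 and 15 against 22 and 18 reads. Both mutant libraries were below both controls, and the log2 fold change was −0.81 (SE 0.31, 95% interval −1.61 to −0.0091) with an adjusted p of 0.787 in limma. It was −0.41 without mutant replicate 1 and −1.22 without mutant replicate 2, and −0.38 with a pseudocount of 1 FPKM. *Dnajb7*, *Dnajb8* and *Dnajb13* had no reads in any library, and of these *Dnajb8* and *Dnajb13* are known from testis. The highest level a count of 0 allows was 0.122 FPKM, for *Dnajb7*.

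**Figure D5:**
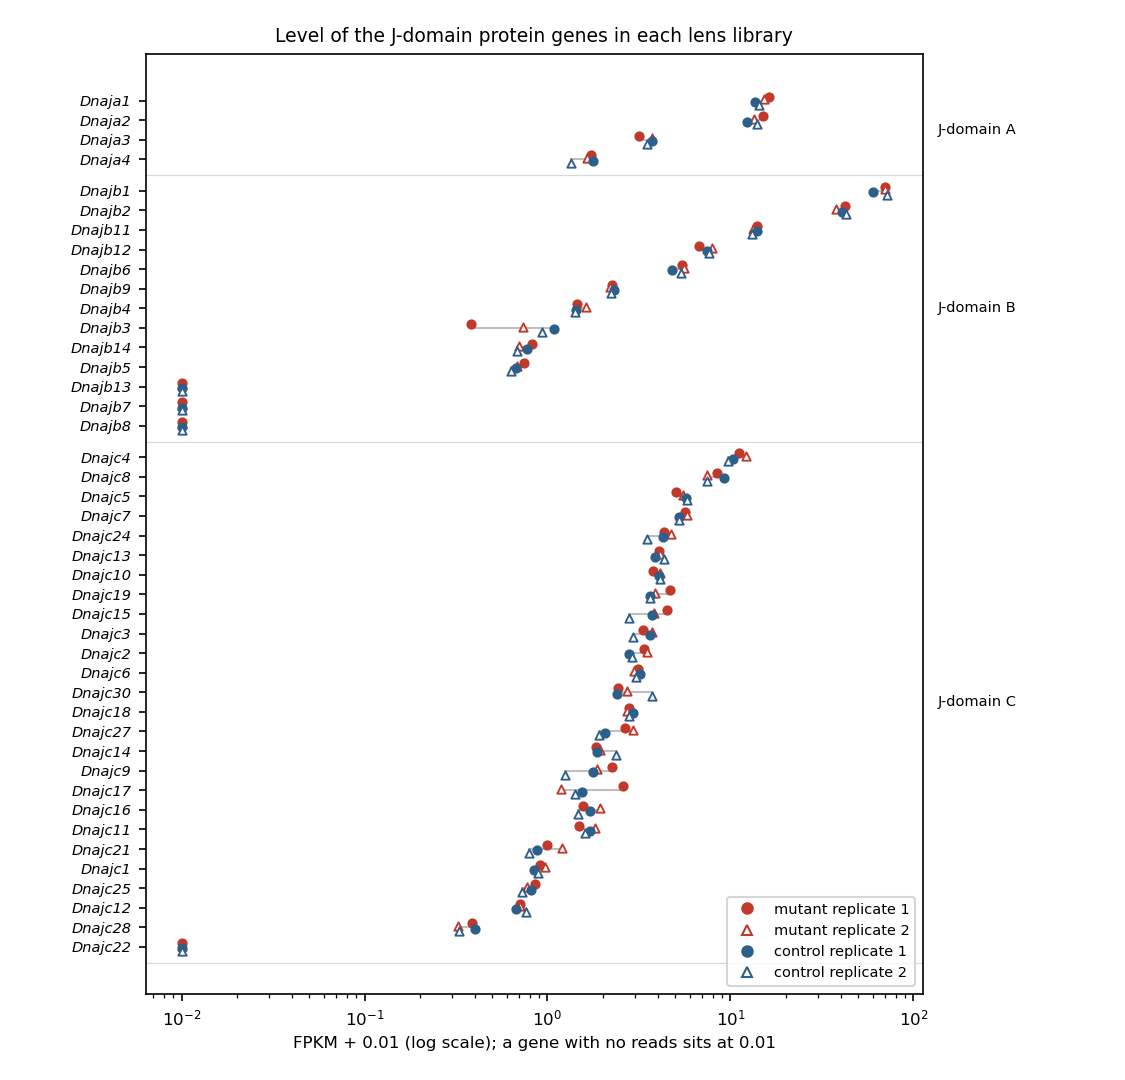
Each row is a J-domain gene of subfamily A, B or C and each point its level in 1 library, as FPKM plus 0.01 on a log axis, with mutant libraries in red, control libraries in blue, replicate 1 as filled circles and replicate 2 as open triangles. Most rows span a narrow range, and 4 genes with no reads sit at 0.01. Both mutant libraries lie above both controls in 14 of 39 tested genes, with Dnajc27 among them, and below in 2, with Dnajb3 among them.

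Subfamily C is mixed, with members in many compartments. Its most abundant members were *Dnajc4*, the splicing-associated *Dnajc8* and *Dnajc5*, the cysteine string protein of vesicles. *Dnajc4* was read at 11.1 and 12.2 FPKM in mutant and 10.4 and 9.67 FPKM in control lenses, without overlap and with a log2 fold change of 0.21 (SE 0.10, adjusted p = 0.810 in limma). *Dnajc8* lay at 8.41 and 7.40 against 9.16 and 7.45 FPKM. *Dnajc5* was the only member of the subfamily with both mutant libraries below the controls, at 5.06 and 5.52 against 5.67 and 5.74 FPKM.

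*Dnajc27*, a small GTPase fused to a J domain, had the smallest p of all members (ENSMUSG00000020657, chr12:4132583-4160606, plus strand). It was read at 2.63 and 2.93 FPKM in mutant and 2.06 and 1.91 FPKM in control lenses, or 239 and 292 against 204 and 179 reads. Both mutant libraries were above both controls. The log2 fold change was 0.47 (SE 0.13, 95% interval 0.13 to 0.80), with an adjusted p of 0.707 in limma and 0.419 in voom.

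Other members of the subfamily with a small p were also higher in mutant lenses. *Dnajc9*, a histone chaperone partner, stood at 2.24 and 1.85 FPKM against 1.75 and 1.23 FPKM, with a log2 fold change of 0.44 (SE 0.21). *Dnajc15*, of the inner mitochondrial membrane, stood at 4.50 and 3.82 against 3.70 and 2.77 FPKM, with 0.36 (SE 0.18). *Dnajc2*, which sits on ribosomes, stood at 3.38 and 3.48 against 2.77 and 2.90 FPKM, with 0.27 (SE 0.11). Groups did not overlap in any of the 3, which were picked for a small p, and adjusted p were 0.806 to 0.810 in limma. Without control replicate 2, the lower control library for both, *Dnajc9* was at 0.21 and *Dnajc15* at 0.16, and without control replicate 1 they were at 0.68 and 0.56. *Dnajc22* had no reads in any library, which allows up to 0.0910 FPKM. The other tested members of the subfamily lay between 0.315 and 5.81 FPKM in single libraries.

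Among the members known to be induced by heat, none passed the test. Of 16 listed, 15 were tested, and 12 of these (80%) had higher mutant means, against 63.4% of all tested members and 50.7% of all genes. The list had a median control level of 34.9 FPKM. At a mean of 10 FPKM or more, 88.5% of members and 65.5% of all genes were higher. Within the list, both mutant libraries were above both controls in 26.7%, against 33.8% of tested members, and below in 6.67%, against 8.45%. The median log2 fold change was 0.093, and 0 had an adjusted p under 0.05 in limma. At an unadjusted p under 0.05 the count was 0 in limma, against 6.31% of all genes, and 1 in voom, against 7.43%, which was *Hspa1b*. Handling of tissue is known to raise such genes together with immediate early genes, so these were read as well. The part of handling in these levels was not tested. Of 16 tested immediate early genes 7 were higher and 9 lower, with a median of −0.059, and the lowest p in each direction belonged to *Klf6* at −0.32 and *Dusp1* at 0.17. *Fos* stood at 0.143 and 0.152 FPKM in mutant and 0.262 and 0.231 FPKM in control lenses. *Atf3* went the other way, at 0.234 and 0.285 FPKM in mutant and 0.0716 and 0.176 FPKM in control lenses. Each rested on 12 reads or fewer in a library. Of the 16, both mutant libraries were above both controls in 3 (18.75%) and below in 5 (31.25%), against 18.2% and 18.3% of all genes.

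The heat shock factors were dominated by *Hsf4*, the lens form, which was read at 170 and 157 FPKM in mutant and 135 and 153 FPKM in control lenses. Both mutant libraries were above both controls, with a log2 fold change of 0.18 (SE 0.11, adjusted p = 0.810 in limma). *Hsf1*, the main factor of the heat response, was listed at 1.23 and 1.21 against 1.51 and 1.35 FPKM, lower in both mutant libraries by 0.21 on the log2 scale (adjusted p = 0.810 in limma). *Hsf2* lay between 0.567 and 0.887 FPKM, and the binding protein *Hsbp1* between 38.0 and 45.2 FPKM. *Hsbp1l1* lay at 0.0822 to 0.217 FPKM, and *Hsf5* and *Hsf2bp* were below the level for testing. In limma 0 of the 5 tested had an adjusted p under 0.05.

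Partners of the members were taken from lists. Of 38 tested co-chaperones and exchange factors 21 were higher and 17 lower, with a median of 0.007. *Ptges3*, the p23 cofactor of HSP90, stood at 11.3 and 11.7 FPKM against 9.19 and 9.37 FPKM, with a log2 fold change of 0.30 (SE 0.091) and an adjusted p of 0.735 in limma. *Ahsa1*, which speeds the ATP use of HSP90, stood at 33.6 and 27.4 against 25.4 and 25.7 FPKM, and *Ttc1* at 13.1 and 12.3 against 10.1 and 11.3 FPKM. Among those that were lower, *Bag2*, an exchange factor of HSP70, lay at 1.01 and 1.09 against 1.31 and 1.28 FPKM.

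Prefoldin and other partners of CCT had 12 of 19 tested members higher, with a median of 0.089. Prefoldin hands unfolded actin and tubulin to CCT. Its subunit *Pfdn4* had the largest estimate of the list, at 2.11 and 1.93 FPKM against 1.43 and 1.10 FPKM. The log2 fold change was 0.65 (SE 0.18) with an adjusted p of 0.690 in limma. *Pfdn6* stood at 7.38 and 6.42 against 6.03 and 4.18 FPKM, and *Vbp1*, another prefoldin subunit, at 5.60 and 5.99 against 4.82 and 5.37 FPKM. The tubulin cofactor *Tbcd* was lower, at 3.94 and 4.45 against 5.07 and 4.86 FPKM. Groups did not overlap in these 4 genes, which were picked for a small p, and none passed after adjustment. In the whole list both mutant libraries were above both controls in 5 of 19 (26.3%) and below in 1 (5.26%). Over all genes tested the shares were 18.2% and 18.3%.

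Genes of the unfolded protein response were split by sign, with 11 of 20 tested higher and a median of 0.084. In 7 (35%) both mutant libraries were above both controls and in 2 (10%) below, against 18.2% and 18.3% of all genes. *Manf*, a secreted factor of stressed endoplasmic reticulum, stood at 4.50 and 4.25 against 3.20 and 3.46 FPKM. Its log2 fold change was 0.38 (SE 0.12, adjusted p = 0.736 in limma). *Calr*, the calcium-binding chaperone calreticulin, stood at 81.4 and 78.9 against 67.0 and 69.1 FPKM, with 0.24 (SE 0.083, adjusted p = 0.771 in limma). *Pdia3*, its disulfide isomerase partner, was read at 31.40 and 31.05 against 27.8 and 27.6 FPKM. In the other direction *Canx*, the membrane relative of calreticulin, lay at 14.6 and 18.0 against 19.7 and 17.8 FPKM and *Creld2* at 3.37 and 2.65 against 4.67 and 3.34 FPKM. Of the mitochondrial import genes and proteases 10 of 15 were higher with a median of 0.018, led by *Pam16* at 0.15 on the log2 scale. Over these lists and the heat shock factors, 0 genes had an adjusted p under 0.05 in limma or in voom.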

How the data were processed

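Libraries of pooled lenses, 2 mutant and 2 control, were sequenced by the authors' provider, which used HISAT2 for alignment and featureCounts for gene counts. The authors deposited FPKM and lengths of 56748 genes. The authors tested differential expression with DESeq2. The submitters' processing notes name mm39, and strandedness is not given in the sources used here. The deposited FPKM, times gene length, were whole multiples of 1 step in 100% of values above 0 (tolerance 0.01), which gave the recovered reads. There were 0 unused columns of single samples.

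Libraries were rescaled by the median ratio to the geometric mean, a common factor of 1.01. The 15997 genes that averaged 0.1 FPKM or more entered, as log2(FPKM + 0.1), lmFit and eBayes with a trend in limma 3.58.1 (R 4.3.3), a two-sided test with Benjamini-Hochberg adjustment over all of them. Fold changes are mutant minus control on that scale, which understates changes of low genes. With 2 libraries per group, p-values measure the spread between pools of lenses only. Alternatives were the pseudocount (1 and 0.01), the filter (1 FPKM and none), the scaling, no trend, voom on recovered reads, the replicate number as a block and leaving out each library, with the crossed pairing, the sum of *Hspa8* and its pseudogene and the length of the principal transcript added after the data were seen. The tests were first tried on simulated data. Intervals and floors (3 reads) cover counting error only.

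The members and lists were chosen with earlier results of these data known. All members outside the J-domain group were named, with the 3 most abundant genes of each J-domain subfamily, the 5 members with the smallest p in each direction, members with no reads or below the filter, and the genes with the smallest p of each related list. Words of 31 bases shared between genes were counted in the GRCm38 transcripts. Promoter windows came from RefSeq (GRCm38.p6). Protein sequences were not used here. Figures were drawn with matplotlib 3.10.9 under Python 3.11.15, and tables were handled with pandas 2.3.3 and numpy 2.4.6.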

Additional observations from a re-analysis of the deposited data

How the results depend on the processing

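No member had an adjusted p under 0.05 in any of the 16 settings, and the smallest adjusted p of a member over all of them was 0.419. Of 31 named members with alternatives, 24 kept their direction in every setting. Members with an unadjusted p under 0.05 numbered 3 and became 1 (*Hspa2*) with scaling to recovered reads. They were 4 without mutant replicate 1, 6 without mutant replicate 2 and 0 without either control replicate, so this count rests on single libraries. The median of the members, 0.075, was 0.044 with scaling to recovered reads, 0.063 with that scaling without crystallins, and between 0.051 and 0.079 when 1 library was left out, the lowest without mutant replicate 1. Over all genes, 6 had an adjusted p under 0.05. The count was 2 with a pseudocount of 1 or 0.01 FPKM, with a filter at 1 FPKM or with no mean-variance trend, 1 with no filter, 14 with voom and 0 without any 1 library. Unadjusted, 1009 genes became 617 with the filter at 1 FPKM.

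Same-numbered samples did not deviate together (correlation −0.005 over 15997 genes and −0.113 over 8378 genes that averaged 1 FPKM or more). With the replicate block 2 genes in all had an adjusted p under 0.05, and 3 members had an unadjusted p under 0.05, of which 2 were shared with the test without the block. With the crossed pairing, chosen after seeing the data, these counts were 1 and 3.

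Directions that reversed did so mostly when 1 library was left out. The log2 fold change then lay between −0.088 and 0.16 for *Hsp90aa1*, −0.014 and 0.18 for *Hsp90ab1*, −0.040 and 0.23 for *Dnajb1* and −0.027 and 0.083 for *Cct6a*, each lowest without control replicate 1. It lay between −0.17 and 0.41 for *Hspb1* and −0.089 and 0.23 for *Hspe1*, lowest without mutant replicate 1, and between −0.42 and 1.16 for *Hspb8*, lowest without mutant replicate 2. *Cct6a* was also at −0.0029 with scaling to recovered reads. Another 13 of the 31 named members kept their direction but moved by over 1.5 times when 1 library was left out. Besides those given with their results, these were *Hspa13* (−0.29 to −0.075), *Hspd1* (−0.27 to −0.039), *Tcp1* (0.0013 to 0.22), *Cct3* (0.078 to 0.21), *Cct4* (0.029 to 0.13) and *Hspa5* (0.040 to 0.11), with *Tcp1*, *Cct3* and *Cct4* lowest without control replicate 1 and *Hspa5* without mutant replicate 2. *Hspa13* was nearest to 0 without control replicate 2 and *Hspd1* without mutant replicate 1. A group left with 1 library was assumed to vary like the other. The cause of these changes was not tested. Few reads limit *Hspa1b*, *Hspb8*, *Cct6b* and *Dnajb3*, which rest on at most 73 reads in a library.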
